A study of Mus musculus with 12 samples.

Results

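Transcripts of 34 mouse genes of glycolysis and its control by hypoxia-inducible factor 1 (HIF1) were followed in liver and in peritoneal macrophages. The genes were chosen by name: the rows of the count tables whose Ensembl identifiers map to the symbols of glycolytic enzymes with their bifunctional regulators, glucose and lactate carriers, pyruvate dehydrogenase kinases, Hif1a and the HIF prolyl hydroxylases Egln1 and Egln3. All 34 symbols were found in both tissues, among 55964 gene identifiers in the tables together. Aldoa maps to a second identifier in the macrophage tables, which held 27 counts over the 6 libraries and was not tested.

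The 4 groups held 3 libraries each, all poly(A) RNA of C57BL/6 mice. They were liver after 2 h of LPS, a bacterial cell wall lipopolysaccharide sensed by toll-like receptor 4, and untreated liver. The macrophage groups were exposed to an shRNA lentivirus during 72 h, followed by 2 h of LPS. The shRNA targeted Gm26917, a long non-coding RNA (shGm26917), or was a negative control (shNC). Both macrophage groups therefore carried a lentivirus and had been stimulated with LPS, and no macrophages without LPS were analysed here. The labels give neither the age nor the sex of the mice, and do not say whether libraries of a group came from separate animals or cultures, so p-values measure the spread between these libraries, which may be technical.

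Glycolysis splits glucose into pyruvate in the cytosol. Hexokinases trap glucose as its phosphate, phosphofructokinase commits it to breakdown under the control of fructose 2,6-bisphosphate made by the Pfkfb enzymes, and pyruvate kinase yields pyruvate. Lactate dehydrogenase reduces pyruvate to lactate, monocarboxylate carriers move lactate across the membrane, and pyruvate dehydrogenase kinases hold pyruvate back from the mitochondria. Most steps have isoenzymes with known tissue preferences: hepatocytes use the L-type pyruvate kinase Pklr, whereas macrophages use Hk2, Hk3 and Pkm. HIF1 is a heterodimer of the oxygen-labile HIF-1alpha (Hif1a) with Arnt. The prolyl hydroxylases of the Egln genes mark HIF-1alpha for destruction when oxygen is present, and Hif1a is also known to rise with LPS in macrophages. HIF1 binds a core of the letters ACGTG or GCGTG near many glycolytic genes.

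The windows at the starts of Pfkfb3, Hk2 and Ldha, which had the most-changed transcripts of the bifunctional enzymes, the hexokinases and the lactate dehydrogenases in LPS liver, and of Ldhb, the member with the largest rise in shGm26917 macrophages, are shown as RefSeq gives them on GRCm38.p6. Each runs 5′ to 3′ on the gene's strand from 250 bases before to 50 bases after the annotated start, and capitals mark every ACGTG or GCGTG on either strand. They lie at chr2:11553880-11554179 (minus strand), chr6:82774405-82774704 (minus strand), chr7:46845554-46845853 (plus strand) and chr6:142507908-142508207 (minus strand).
Pfkfb3: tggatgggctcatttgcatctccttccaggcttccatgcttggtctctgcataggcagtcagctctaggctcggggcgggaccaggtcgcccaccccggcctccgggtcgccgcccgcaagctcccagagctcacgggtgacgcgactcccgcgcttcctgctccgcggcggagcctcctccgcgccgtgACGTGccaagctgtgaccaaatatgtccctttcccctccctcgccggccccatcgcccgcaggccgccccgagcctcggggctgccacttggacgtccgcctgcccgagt
Hk2: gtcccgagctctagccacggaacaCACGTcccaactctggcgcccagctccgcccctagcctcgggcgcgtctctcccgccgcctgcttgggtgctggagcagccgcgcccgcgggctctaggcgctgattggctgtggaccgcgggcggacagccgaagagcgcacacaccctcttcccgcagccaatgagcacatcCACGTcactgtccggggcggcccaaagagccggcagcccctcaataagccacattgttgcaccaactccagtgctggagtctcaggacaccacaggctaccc
Ldha: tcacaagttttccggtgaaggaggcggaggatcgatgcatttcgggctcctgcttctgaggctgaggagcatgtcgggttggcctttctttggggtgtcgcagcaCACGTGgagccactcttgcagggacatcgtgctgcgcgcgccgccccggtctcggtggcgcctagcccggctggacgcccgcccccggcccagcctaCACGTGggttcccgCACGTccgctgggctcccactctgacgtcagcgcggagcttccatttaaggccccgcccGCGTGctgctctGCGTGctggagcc
Ldhb: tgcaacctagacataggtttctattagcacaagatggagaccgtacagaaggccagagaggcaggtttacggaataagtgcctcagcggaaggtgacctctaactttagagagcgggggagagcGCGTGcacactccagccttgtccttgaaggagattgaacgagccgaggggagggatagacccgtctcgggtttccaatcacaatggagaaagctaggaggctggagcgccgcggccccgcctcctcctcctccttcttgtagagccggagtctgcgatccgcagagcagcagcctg

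The Ldha window holds 7 matches, of which 5 are ACGTG and 2 are GCGTG. Its 2 copies of the palindrome CACGTG, the E-box that Myc and other factors bind, account for 4 of the ACGTG matches, since each reads ACGTG on both strands. Hk2 holds 2 matches, Pfkfb3 1 and Ldhb 1. A window of this length was found for 33 members (all but Slc2a3), and 25 of them (75.8%) held ACGTG or GCGTG, against 43.8% of 27025 gene starts. For ACGTG alone the shares were 54.5% of members and 19.7% of all starts, for GCGTG alone 48.5% and 32.5%, and for CACGTG 18.2% and 7.24%. The matches did not separate members by their response. They stood in 8 of 10 windows of members that rose in LPS liver, 4 of 5 of those that fell and 13 of 17 of those not called. In macrophages the counts were 6 of 7, 7 of 8 and 12 of 17 for shGm26917 against shNC. A match is a description of these letters and not a binding site.

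Libraries held 17322770 to 20913964 counts in liver and 15605311 to 18062853 in macrophages. Levels are given as CPM, counts per 1e6 on library sizes scaled by TMM, and levels between genes are given per kilobase of merged exon. Log2 fold changes, their standard errors (SE) and p-values come from quasi-likelihood tests in edgeR, the p-values adjusted by Benjamini-Hochberg over every gene tested in the tissue, and a gene was called at an adjusted p under 0.05. Gm26917, the target of the hairpin, was not analysed here in the macrophages, so the knockdown was not checked. In liver it stood at 480, 220 and 338 CPM with LPS and 84.8, 234 and 160 CPM untreated. Untreated replicate 3 and shNC replicate 2 stood apart from their groups for several members, and results that rest on them are given with and without them. Mitochondrial genes took 6.21% to 9.65% of counts in LPS livers, with replicate 1 the highest, and 5.06% to 5.45% in untreated livers. In macrophages they took 0.927% to 0.976% with shGm26917 and 0.523% to 0.839% with shNC. The groups did not overlap in either tissue, and the part of this difference in the results was not tested. Without LPS replicate 1, the calls of Aldoa, Pkm, Pdk1 and Egln1 were lost and Slc2a1 was called lower. With scaling by library totals alone, the median over all genes of the log2 fold change moved by -0.43 in liver and by 0.29 in macrophages, so all changes are relative to the TMM scaling.

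The 7 hepatocyte markers summed to at most 0.469 CPM in the macrophage libraries, where macrophage and monocyte markers summed to 18766 to 27267 CPM with shGm26917 and 12816 to 21647 CPM with shNC. Of 10 such markers 3 were higher and 2 lower with shGm26917. In liver, the 12 neutrophil markers summed to 227 to 319 CPM with LPS and 3.91 to 9.29 CPM untreated, with 9 of 10 tested higher. The 10 macrophage and monocyte markers summed to 340 to 560 CPM with LPS and 124 to 154 CPM untreated, with 4 higher and 1 lower. The 10 markers of Kupffer cells, the resident macrophages of liver, overlapped, at 179 to 472 CPM with LPS and 321 to 409 CPM untreated. Of these, 1 was higher and 1 lower. Erythroid markers summed to 565 to 1041 CPM with LPS and 158 to 274 CPM untreated. Genes listed as large peritoneal macrophage markers summed to 267 to 309 CPM with LPS and 41.4 to 83.5 CPM untreated. Among them, Lyve1 is also listed for sinusoidal endothelial cells and Timd4 for Kupffer cells, so in liver this sum does not mark 1 cell type. T and NK cell markers summed to 15.9 to 26.2 CPM with LPS and 4.34 to 7.14 CPM untreated. Platelet markers summed to 12.7 to 16.5 and 4.51 to 5.47 CPM, and B cell markers to 7.59 to 11.3 and 12.4 to 16.4 CPM. Hepatocyte markers summed to 59182 to 93971 CPM with LPS and 80135 to 122621 CPM untreated, with 1 of 7 lower and 0 higher in edgeR (0 higher at an unadjusted p under 0.05, and 1 higher in DESeq2). In whole tissue, fewer cells of a type and less RNA per cell cannot be told apart. The part of blood and immune cells in the liver results was not tested.

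In LPS liver, 11 of the 33 tested members rose, 5 fell and 17 were not called, which is 48.5% called beside 45.3% of all 13869 genes tested. The members' share lay near that background, and isoenzymes of 1 step differed in direction. Transcripts of the inducible Pfkfb3, of Hk2, Hk3 and Pfkp and of the lactate-forming enzyme Ldha rose, together with Hif1a, while Pklr, Pfkm, Pdk1, Pdk2 and Egln1 fell. Gpi1 and the enzymes from aldolase to enolase were, apart from Aldoa, not called. Among all genes tested, 23.3% rose and 22.1% fell. The groups did not overlap for 21 of the 33 members (63.6%), against 57.8% of all genes. The members' median log2 fold change was 0.36, and that of all genes was -0.06. Without untreated replicate 3 these medians were 0.59 and -0.03, and without untreated replicate 1 they were 0.15 and -0.04. Eno2, the neuronal enolase, had 2 to 19 counts per liver library and was not tested.

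**Figure D1:**
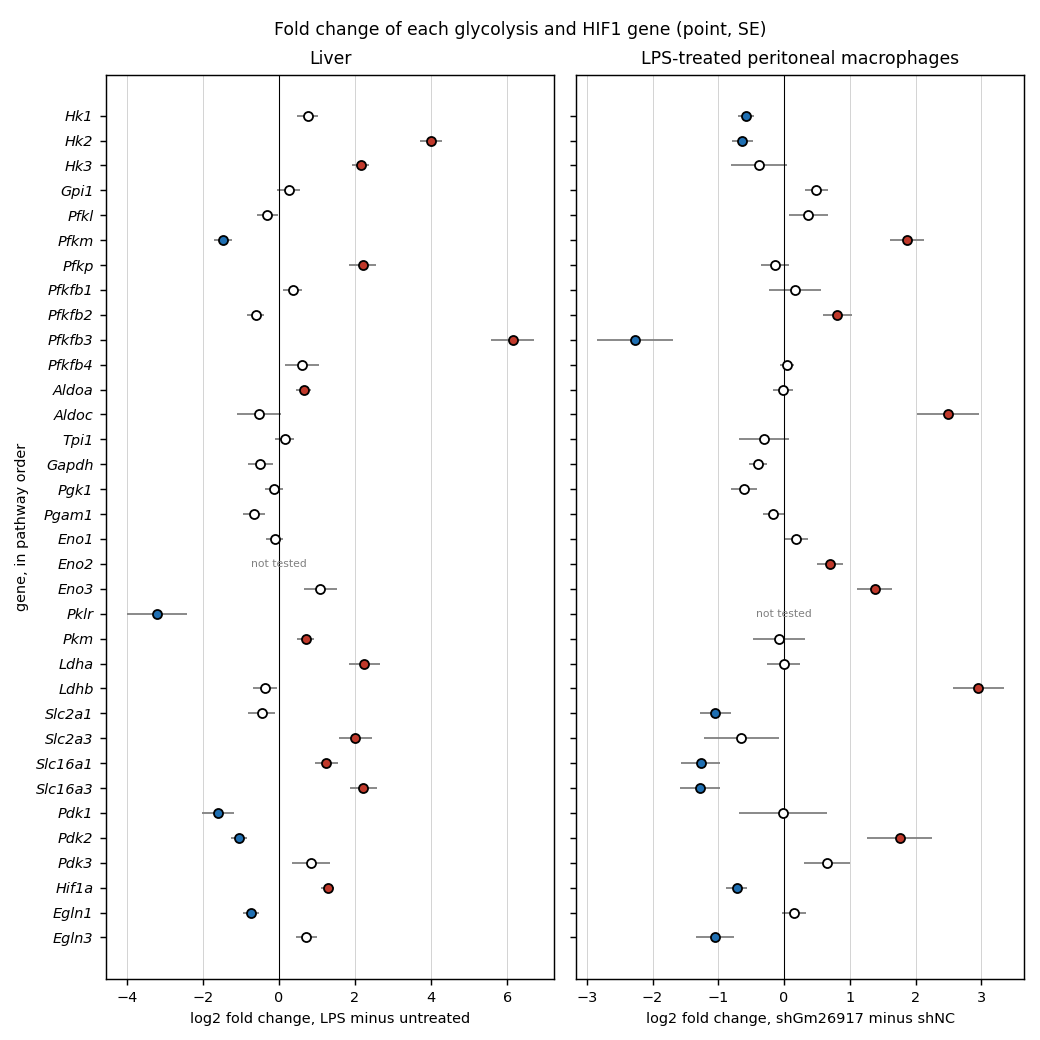
Log2 fold changes of the members in liver (LPS over untreated) and in LPS-treated macrophages (shGm26917 over shNC), with bars of 1 SE; filled red and blue points are members called higher and lower, open points were not called, and the 2 horizontal scales differ. Pfkfb3 has the largest rise in liver (6.14) and the largest fall in macrophages (-2.27), and 0 members were called in the same direction in both comparisons. The matching share over all genes was not counted.

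Pfkfb3, the isoform of the bifunctional enzyme with the highest kinase activity and a known target of HIF1, had the largest change of the members. It stood at 236, 307 and 283 CPM in LPS livers, against 2.59, 1.67 and 7.42 CPM in untreated livers (log2 fold change 6.14, SE 0.56, adjusted p = 6.75e-05). Every LPS library lay above every untreated library, and untreated replicate 3 held the highest untreated value. Without that replicate the log2 fold change was 7.01. Pfkfb1, the liver isoform, had 34, 25.6 and 29.99 CPM in LPS livers and 16.3, 23.5 and 30.2 CPM in untreated livers (adjusted p = 0.258), so the groups overlapped. Pfkfb2, the heart isoform, was 5.27 to 7.32 CPM in LPS livers and 8.06 to 11.5 CPM in untreated livers (log2 fold change -0.61, adjusted p = 0.0552), and passed the test without untreated replicate 2 (adjusted p = 0.0398). Pfkfb4 was low, at 1.08 to 1.61 CPM in LPS livers and 0.556 to 1.39 CPM in untreated livers (adjusted p = 0.30).

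The groups did not overlap in the make-up of the Pfkfb family. Pfkfb3 made up 80.7 ± 3.66% of the family's counts per kilobase in LPS livers and 6.09 ± 3.33% in untreated livers (SD, n = 3 each), while Pfkfb1 made up 16.7 ± 3.83% and 73.4 ± 6.90%. Neither share overlapped between the groups. The exact permutation test of 3 against 3 libraries gave p = 0.10 for each, the smallest it can give, and 0.14 after adjustment over the 35 shares compared in liver. The groups did not overlap for 25 of those 35 shares.

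Hexokinases, which phosphorylate glucose, moved in part. Hk2, the insulin-responsive isoenzyme that HIF1 is known to induce, stood at 31.5, 21.2 and 18.8 CPM in LPS livers, against 1.82, 1.53 and 1.13 CPM in untreated livers (log2 fold change 3.99, SE 0.29, adjusted p = 1.95e-05). Hk3, the isoenzyme of myeloid cells, stood at 14.2, 17.3 and 13.5 CPM in LPS livers, against 2.91, 3.11 and 4.12 CPM in untreated livers (log2 fold change 2.15, SE 0.23, adjusted p = 0.000146). Both separated the groups in every library. Hk1, the isoenzyme of most tissues, had 4.24 to 6.65 CPM in LPS livers and 2.36 to 3.46 CPM in untreated livers (adjusted p = 0.0606), without overlap and without a call.

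Among the phosphofructokinases, which catalyse the committed step, the platelet-type Pfkp and the muscle-type Pfkm went opposite ways. Pfkp stood at 22.7, 13.0 and 10.6 CPM in LPS livers, against 4.55, 2.36 and 3.13 CPM in untreated livers (log2 fold change 2.20, SE 0.35, adjusted p = 0.00143). Pfkm stood at 3.82, 4.49 and 5.63 CPM in LPS livers, against 10.3, 13.6 and 14.5 CPM in untreated livers (log2 fold change -1.46, SE 0.24, adjusted p = 0.00145). Neither overlapped between the groups. The liver-type Pfkl, the most abundant of the 3 per kilobase, had 33.0, 20.7 and 20.5 CPM in LPS livers and 20.9, 31.5 and 39.0 CPM in untreated livers (adjusted p = 0.402). Its share of the family was 58.7 ± 4.27% in LPS livers and 52.1 ± 4.17% in untreated livers, while Pfkm made up 23.3 ± 7.94% and 44.8 ± 2.74% and Pfkp 18.0 ± 3.74% and 3.12 ± 1.78% (SD, n = 3 each). Of the transcript of Pfkp, 16.0% of 100-base windows also occur in 1 other annotated gene.

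The middle of the pathway moved less. Aldoa, the aldolase of muscle and most other tissues, was the one member called among Gpi1 and the enzymes from aldolase to enolase, at 144, 99.8 and 113 CPM in LPS livers, against 69.3, 83.3 and 75.2 CPM in untreated livers (log2 fold change 0.65, SE 0.20, adjusted p = 0.0275). That call was lost without LPS replicate 1 (adjusted p = 0.0683), LPS replicate 3 (0.0660) or untreated replicate 1 (0.0696), and with library totals. The groups overlapped for Tpi1, Pgk1 and Eno1, enzymes of the 3-carbon stage: Tpi1 had 306 to 427 CPM in LPS livers and 262 to 401 CPM in untreated livers, Pgk1 207 to 264 and 221 to 329 CPM, and Eno1 325 to 389 and 340 to 465 CPM (adjusted p of 0.647, 0.659 and 0.691). Gpi1 had 153, 131 and 134 CPM in LPS livers and 72.8, 102 and 176 CPM in untreated livers (adjusted p = 0.532), and was called higher without untreated replicate 3 (log2 fold change 0.67, adjusted p = 0.0367). Pgam1, the mutase, had 27.5 to 65.6 CPM in LPS livers and 68.4 to 81.4 CPM in untreated livers (adjusted p = 0.0984), and was called lower without LPS replicate 3 (0.0410). The muscle enolase Eno3 had 14.7, 4.99 and 4.75 CPM in LPS livers and 4.10, 4.08 and 3.30 CPM in untreated livers (adjusted p = 0.0703), and passed the test without LPS replicate 2 (0.0449) or LPS replicate 3 (0.0413). Aldoc, the brain-type aldolase, overlapped between the groups, with 19.8 CPM in untreated replicate 3 and 4.05 to 10.6 CPM in the other libraries.

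Several of these enzymes have retrocopies in the mouse genome, and the sources used here do not say how reads matching several places were counted. Gapdh, commonly among the most abundant glycolytic transcripts, had only 100 to 382 counts in any library. It stood at 6.33 to 9.28 CPM in LPS livers and 6.44 to 16.4 CPM in untreated livers (adjusted p = 0.260). Of all 100-base windows of its longest protein-coding transcript model, 78.05% occur in at least 1 of 86 other annotated genes, the highest share of the members. That share was 67.0% for Pgk1, 59.0% for Eno1, 39.7% for Pgam1, 23.9% for Pfkfb2, 21.8% for Pklr, 9.82% for Pkm and 8.80% for Ldhb, and 0 for Hk2, Hk3, Pfkm, Pfkfb3, Aldoa and both lactate carriers. The levels of Gapdh, Pgk1, Eno1 and Pgam1 are therefore uncertain, by an amount that these shares do not measure. The part of shared sequence in their values was not tested.

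**Figure D2:**
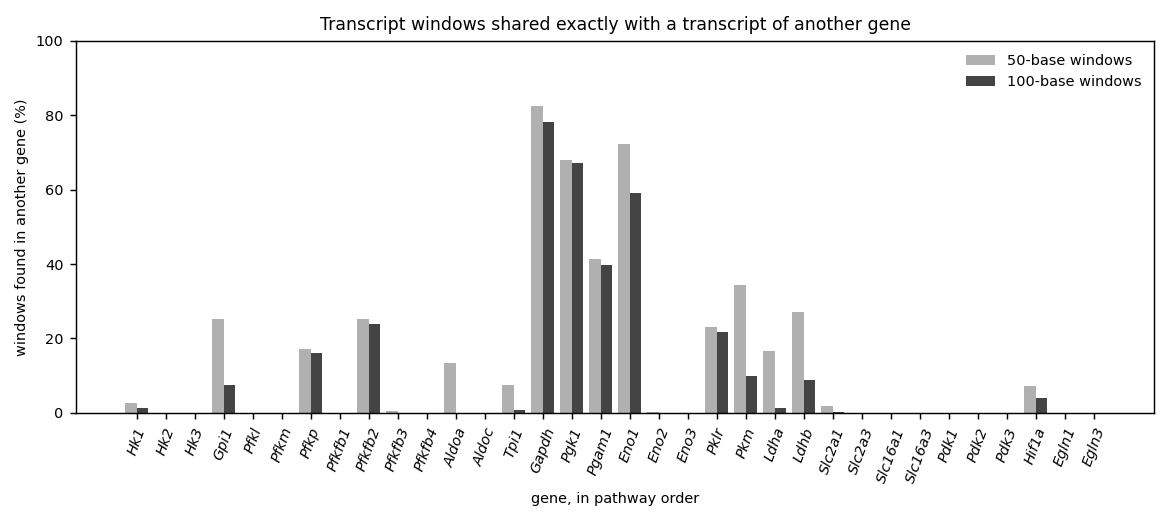
Percent of the 50-base and 100-base windows of each member's transcript that also occur in another annotated gene. Gapdh is highest, with 82.5% of 50-base and 78.05% of 100-base windows, followed by Pgk1 and Eno1, while most members are at or near 0.

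At the end of the pathway, pyruvate kinase and lactate dehydrogenase changed. Pklr, the hepatocyte pyruvate kinase, stood at 3.32, 14.3 and 17.0 CPM in LPS livers, against 39.2, 51.2 and 232 CPM in untreated livers (log2 fold change -3.22, SE 0.79, adjusted p = 0.0108). Untreated replicate 3 was far above the others, and without it the log2 fold change was -1.96 and the gene was still called. Pkm, the pyruvate kinase of most other cells, stood at 31.2, 21.8 and 19.4 CPM in LPS livers, against 14.5, 12.6 and 17.3 CPM in untreated livers (log2 fold change 0.70, SE 0.23, adjusted p = 0.0330). The Pkm call was lost without LPS replicate 1 (adjusted p = 0.0924), LPS replicate 2 (0.0570), untreated replicate 1 (0.0753) or untreated replicate 2 (0.112), and with library totals. Pkm made up 59.3 ± 23.3% of the pair per kilobase in LPS livers and 12.6 ± 7.44% in untreated livers (SD, n = 3 each), without overlap (exact permutation p = 0.10).

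Ldha, which reduces pyruvate to lactate, was the most abundant member in liver, at 1495 ± 119 CPM per kilobase in LPS livers and 316 ± 147 in untreated livers (SD, n = 3 each). It stood at 4842, 4621 and 5386 CPM in LPS livers, against 1472, 1146 and 516 CPM in untreated livers (log2 fold change 2.24, SE 0.40, adjusted p = 0.00233). The lowest LPS library was above the highest untreated library, and untreated replicate 3 was the lowest of all. With 1 library left out, the log2 fold change of Ldha ranged from 1.92 to 2.57. Ldhb, the heart-type subunit, had 1.46 to 1.89 CPM in LPS livers and 1.71 to 2.74 CPM in untreated livers (adjusted p = 0.369). The next most abundant members per kilobase were Tpi1 (134 ± 22.0 in LPS livers and 122 ± 25.4 in untreated livers) and Pgk1 (106 ± 12.6 and 116 ± 26.8), whose values overlapped between the groups.

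**Figure D3:**
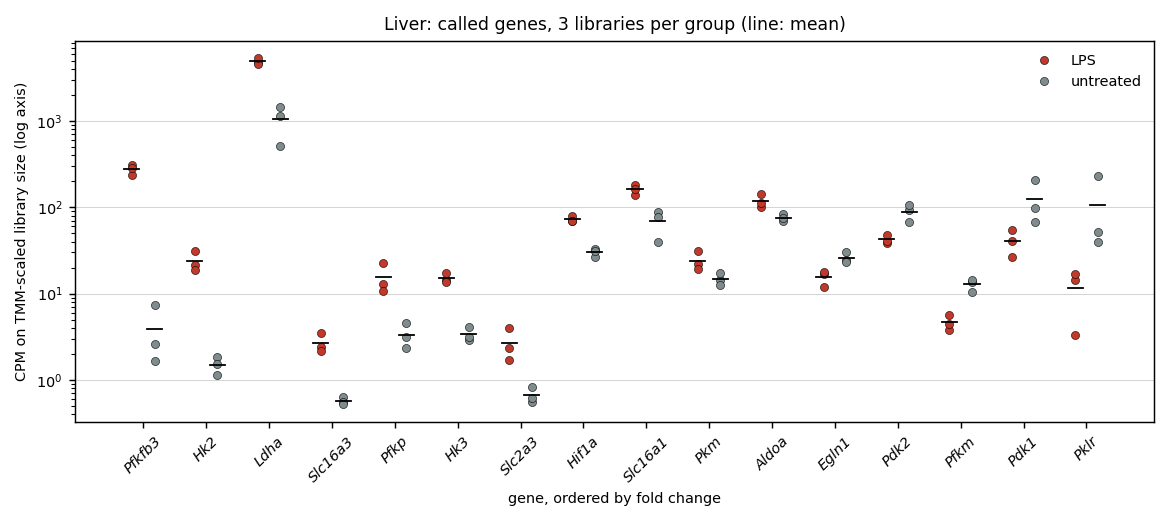
CPM of the called members in each liver library on a log axis, with LPS left of untreated, 1 point per library and a line at the mean of 3. Pfkfb3, Hk2, Hk3 and Ldha separate the groups in every library, while Pklr shows the untreated library at 232 CPM far above the others.

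The carriers of lactate and glucose also changed. Slc16a1 (MCT1), which moves lactate and other monocarboxylates, stood at 141, 182 and 165 CPM in LPS livers, against 89.4, 77.4 and 39.6 CPM in untreated livers (log2 fold change 1.24, SE 0.30, adjusted p = 0.00982), a call lost with library totals. Slc16a3 (MCT4), the lactate exporter of glycolytic cells, stood at 2.38, 2.16 and 3.48 CPM in LPS livers, against 0.637, 0.556 and 0.521 CPM in untreated livers (log2 fold change 2.21, SE 0.36, adjusted p = 0.00146). Both separated the groups. Slc2a3 (GLUT3), a high-affinity glucose transporter of neurons and leukocytes, stood at 4.01, 1.72 and 2.34 CPM in LPS livers, against 0.546, 0.834 and 0.608 CPM in untreated livers (log2 fold change 2.01, SE 0.42, adjusted p = 0.00542). Slc2a1 (GLUT1), the basal transporter of many cells, had 18.5, 7.66 and 7.91 CPM in LPS livers and 12.1, 17.3 and 17.3 CPM in untreated livers (adjusted p = 0.319), and was called lower without LPS replicate 1 (log2 fold change -0.98, adjusted p = 0.0163). Slc2a2 (GLUT2), the hepatocyte transporter outside the 34, stood at 75.0, 81.2 and 104 CPM in LPS livers, against 246, 210 and 427 CPM in untreated livers (log2 fold change -1.76, SE 0.30, adjusted p = 0.00195).

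Pyruvate dehydrogenase kinases, which inhibit the entry of pyruvate into the citric acid cycle, fell where they were called. Pdk1, a known HIF1 target, stood at 26.3, 54.8 and 41.2 CPM in LPS livers, against 98.1, 68.1 and 206 CPM in untreated livers (log2 fold change -1.60, SE 0.42, adjusted p = 0.0146), a call lost without LPS replicate 1 (0.0580). With 1 library left out, the log2 fold change of Pdk1 ranged from -1.92 to -1.02. Pdk2, the widely expressed form, stood at 38.9, 40.7 and 48.4 CPM in LPS livers, against 67.0, 94.1 and 105 CPM in untreated livers (log2 fold change -1.06, SE 0.21, adjusted p = 0.00435). Neither overlapped between the groups. Pdk3 was under 1 CPM in every liver library and was not called. Pdk4, the fasting-induced form outside the 34, varied from 77.3 to 383 CPM in LPS livers and from 12.3 to 105 CPM in untreated livers (adjusted p = 0.165).

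Hif1a stood at 79.3, 69.9 and 69.7 CPM in LPS livers, against 32.5, 26.3 and 31.3 CPM in untreated livers (log2 fold change 1.28, SE 0.17, adjusted p = 0.000493). The groups were well apart and the libraries within each close together. Egln1 (PHD2), the main prolyl hydroxylase of HIF-1alpha, stood at 11.8, 17.0 and 17.9 CPM in LPS livers, against 24.7, 30.3 and 23.3 CPM in untreated livers (log2 fold change -0.75, SE 0.21, adjusted p = 0.0199). Its call was lost without LPS replicate 1 (0.0556) or untreated replicate 2 (0.0601). Egln3 (PHD3), itself a known HIF1 target, had 23.6, 35.2 and 26.5 CPM in LPS livers and 23.4, 17.2 and 11.3 CPM in untreated livers. It did not overlap but was not called (log2 fold change 0.71, adjusted p = 0.0646). It was called without untreated replicate 1 (0.99, adjusted p = 0.0237) and with no filter on low counts. Transcript levels do not report the HIF-1alpha protein, which oxygen controls.

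Genes around the pathway were read from lists, whose counts stand beside 23.3% of all genes tested that rose and 22.1% that fell. Of 14 tested genes of the HIF pathway core, 6 rose and 3 fell, with a median log2 fold change of 0.36. The risers were Cited2, which competes with HIF1 for its coactivators (60.2, 121 and 86.7 CPM in LPS livers, against 17.7, 19.4 and 10.9 CPM in untreated livers; log2 fold change 2.48), the collagen hydroxylase P4ha1, and Elob, Eloc, Cul2 and Rbx1, subunits of the ubiquitin ligase that removes HIF-1alpha. Vhl, the recognition subunit of that ligase, fell with Hif1an, which blocks coactivator binding, and the coactivator Ep300. The number that rose was 3 without any 1 LPS replicate or without untreated replicate 1, 4 without untreated replicate 2, and 2 with library totals. P4ha1 and P4ha2 are listed both in the HIF pathway core and among the HIF1 targets outside glycolysis. Of 23 tested HIF1 targets outside glycolysis, 8 rose and 5 fell (median 0.16), and 5 rose and 8 fell with library totals. The number that fell was 3 without LPS replicate 3 and 2 without LPS replicate 2. Those that rose included the vasodilator peptide Adm (log2 fold change 5.80) and haem oxygenase Hmox1 (3.05). Nos2, the inducible nitric oxide synthase, had 8.61 to 10.8 CPM in LPS livers and no count in untreated livers, where 3 counts are 0.143 to 0.173 CPM. Vegfa also rose, while Kdm3a, Kdm4b, Mxi1, Ak4 and Rora fell.

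The other glycolytic and glucose entry genes had 2 higher and 4 lower of 17 (median -0.10), and 7 lower with library totals. The higher ones were the lysosomal transporter Slc2a6, at 15.7, 15.04 and 11.2 CPM in LPS livers and 0.0463 to 0.455 CPM in untreated livers (log2 fold change 5.83, or 6.63 without untreated replicate 1), and the muscle mutase Pgam2, at 2.78 to 4.61 CPM in LPS livers and 0.0455 to 0.278 CPM in untreated livers (4.60, and 5.54 without untreated replicate 2). The muscle markers Ckm, Acta1, Myh4 and Mb summed to at most 0.313 CPM in LPS livers and were at 0 in untreated livers. Of the pyruvate dehydrogenase list, 1 rose and 4 fell of 12 (median -0.24), and 0 rose and 6 fell with library totals. The falls were those of Pdpr and Pdp2, which serve the phosphatase that reactivates the enzyme (log2 fold changes -3.98 and -2.56), and of its subunits Pdha1 (-1.28) and Dlat (-1.03). Pentose phosphate and glycogen genes had 3 higher and 7 lower of 18 (median -0.55), among them Pgm2 (2.11) higher and Gys1 (-1.68) and Ugp2 (-1.24) lower. The number lower in that list was 4 without LPS replicate 1, LPS replicate 3 or untreated replicate 3, and 3 without LPS replicate 2. Its median log2 fold change was -0.02 without untreated replicate 3.

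Of the 6 gluconeogenic counterparts tested, 2 fell and none rose, G6pc (log2 fold change -7.35; with LPS replicate 1 left out, -8.16) and Pck1 (-3.68), which act opposite to hexokinase and pyruvate kinase; with library totals, or in 1 fit over all 12 libraries, 4 fell. At an unadjusted p under 0.05 in edgeR, 4 of them were lower and 0 higher, and DESeq2 called 2 lower and 0 higher. Transcription regulators of glycolysis had 3 higher and 6 lower of 18 (median -0.27). Myc (1.49) and the carbohydrate response factors Mlxipl and Mlxip rose, and Ppargc1a (-3.05), Foxo3 (-2.97), Txnip (-2.91), which restrains glucose uptake, and the mTORC1 inhibitor Tsc1 (-1.97) were among those that fell. With library totals 1 rose and 10 fell, and 4 fell without any 1 of LPS replicates 1, 2 and 3 or untreated replicate 3. Of 5 tested genes listed as near-identical copies of members, Eno1b (-1.82) and Gapdhs (-1.95) fell. Gapdhs, a protein-coding gene, is also counted among the other glycolytic and glucose entry genes that fell.

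In LPS-treated macrophages, 7 of 33 tested members were higher with shGm26917 than with shNC, 8 were lower and 18 were not called. That is 45.5% called, beside 23.7% of all 12876 genes tested. Among all genes 12.6% were higher and 11.1% lower. The groups did not overlap for 18 members (54.5%), against 45.9% of all genes, and the median log2 fold change was -0.02 for the members and -0.00 for all genes. Without shNC replicate 2 these medians were 0.27 and 0.01, and without shNC replicate 3 they were -0.19 and -0.01. Lower with shGm26917 were Pfkfb3, Hk1, Hk2, the glucose transporter Slc2a1, both lactate carriers, Hif1a and Egln3. Higher were Ldhb, Aldoc, Pfkm, Pdk2, Eno3, Pfkfb2 and Eno2, isoenzymes that were low in these cells. Pklr had 0 counts in all 6 libraries, where 3 counts are 0.166 to 0.192 CPM. Of these 15, Pfkm and Ldhb were called with each of the 6 libraries left out in turn.

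The falls included transcripts of genes for the entry of glucose and the control of phosphofructokinase. Slc2a1, the basal glucose transporter, stood at 254, 138 and 206 CPM with shGm26917, against 385, 384 and 468 CPM with shNC (log2 fold change -1.05, SE 0.24, adjusted p = 0.0239). Without shGm26917 replicate 2 (adjusted p = 0.0626), shGm26917 replicate 3 (0.0878) or shNC replicate 3 (0.0707) it was not called. Hk2 stood at 180, 147 and 124 CPM with shGm26917, against 217, 244 and 241 CPM with shNC (log2 fold change -0.64, SE 0.16, adjusted p = 0.0339). That call was lost without shGm26917 replicate 2 (0.126), shGm26917 replicate 3 (0.111), shNC replicate 1 (0.0567) or shNC replicate 3 (0.0861). Hk1 stood at 124, 127 and 114 CPM with shGm26917, against 162, 200 and 185 CPM with shNC (log2 fold change -0.58, SE 0.13, adjusted p = 0.0211), and lost the call without shGm26917 replicate 1 (0.0749), 2 (0.0801) or 3 (0.0917) or shNC replicate 3 (0.0563). All 3 genes separated the groups in every library, and with library totals Hk1 and Hk2 were not called. Hk3, the most abundant hexokinase per kilobase, had 248, 258 and 206 CPM with shGm26917 and 177, 546 and 206 CPM with shNC (adjusted p = 0.546), so that shNC replicate 2 was far above all others.

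Pfkfb3 stood at 115, 134 and 71.0 CPM with shGm26917, against 282, 1003 and 263 CPM with shNC (log2 fold change -2.27, SE 0.58, adjusted p = 0.0334). The groups did not overlap, and shNC replicate 2 carried the highest value. Without that library the log2 fold change was -1.37 and the gene was still called, whereas the call was lost without shGm26917 replicate 1 (adjusted p = 0.1001), 2 (0.0970) or 3 (0.119). Pfkfb2 stood at 10.2, 13.0 and 11.6 CPM with shGm26917, against 7.57, 7.30 and 4.996 CPM with shNC (log2 fold change 0.81, SE 0.21, adjusted p = 0.0365). It was called with shNC replicate 2 left out and lost the call with any other library left out, at adjusted p of up to 0.129. Pfkfb4, a further HIF1-inducible form, differed by less than the spread between libraries, at 34.3, 37.6 and 35.6 CPM with shGm26917 and 32.8, 34.8 and 37.1 CPM with shNC (log2 fold change 0.04, SE 0.11, adjusted p = 0.818). Pfkfb3 made up 59.3 ± 7.63% of the family per kilobase with shGm26917 and 85.4 ± 7.44% with shNC (SD, n = 3 each), and Pfkfb4 32.1 ± 6.20% and 12.5 ± 6.57%. Both shares separated the groups (exact permutation p = 0.10, adjusted 0.206 over 35 shares, of which 17 did not overlap).

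Both lactate carriers were lower. Slc16a1 stood at 20.3, 18.9 and 18.7 CPM with shGm26917, against 31.3, 69.9 and 38.4 CPM with shNC (log2 fold change -1.27, SE 0.30, adjusted p = 0.0258). Slc16a3, the exporter, stood at 72.8, 50.4 and 48.1 CPM with shGm26917, against 126, 198 and 92.6 CPM with shNC (log2 fold change -1.28, SE 0.31, adjusted p = 0.0279). No library of either group crossed into the range of the other. Without shNC replicate 2 the log2 fold changes were -0.87 for Slc16a1 and -0.95 for Slc16a3, and both were still called. The Slc16a1 call was lost without shGm26917 replicate 1 (adjusted p = 0.0801), 2 (0.0990) or 3 (0.0959). That of Slc16a3 was lost without shGm26917 replicate 1 (0.0504), 2 (0.110) or 3 (0.107) or shNC replicate 1 (0.0513).

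Hif1a, the fifth most abundant member per kilobase with shGm26917 (93.3 ± 10.6 CPM per kilobase) and the fourth with shNC (154 ± 16.4; SD, n = 3 each), stood at 607, 560 and 483 CPM with shGm26917, against 802, 991 and 931 CPM with shNC (log2 fold change -0.72, SE 0.16, adjusted p = 0.0229). All shGm26917 libraries lay below all shNC libraries. The call was lost without shGm26917 replicate 1 (0.0610), 2 (0.0949) or 3 (0.0997) or shNC replicate 3 (0.0613), and with library totals. Egln3 stood at 13.6, 11.2 and 9.13 CPM with shGm26917, against 27.0, 28.9 and 14.4 CPM with shNC (log2 fold change -1.05, SE 0.29, adjusted p = 0.0440), and lost its call without shGm26917 replicate 1 (0.0820), 2 (0.136) or 3 (0.144) or shNC replicate 1 (0.106), and with library totals. Egln1 had 41.0, 39.8 and 39.4 CPM with shGm26917 and 37.7, 43.7 and 26.8 CPM with shNC (adjusted p = 0.575). The shares of the Egln family per kilobase were 28.5 ± 0.550% for Egln1 and 10.9 ± 1.93% for Egln3 with shGm26917, and 21.5 ± 2.59% for Egln1 and 18.7 ± 4.79% for Egln3 with shNC (SD, n = 3 each), both without overlap.

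**Figure D4:**
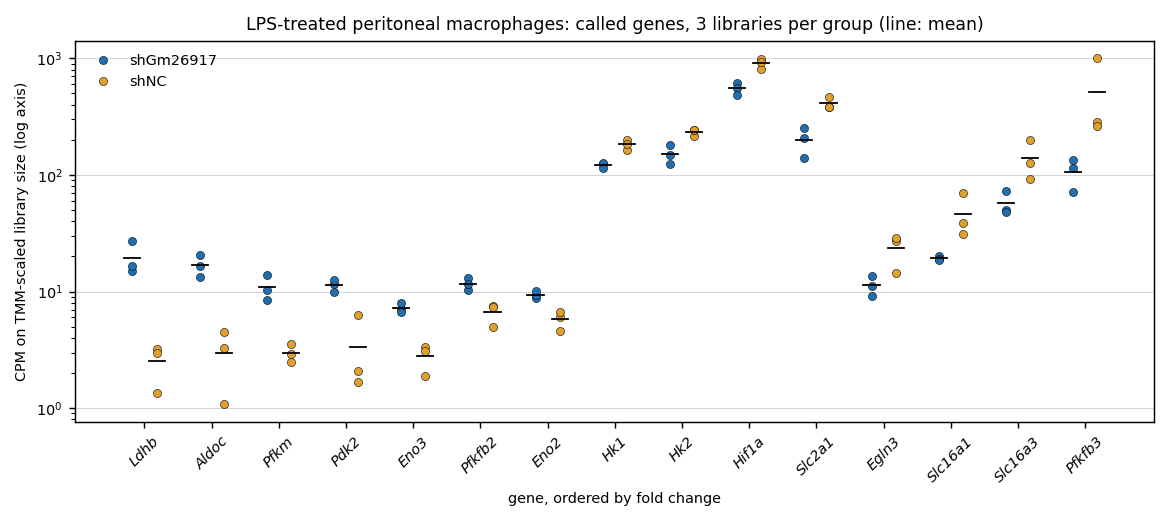
CPM of the called members in each macrophage library on a log axis, with shGm26917 left of shNC, 1 point per library and a line at the mean of 3. Pfkfb3, Slc2a1, Hk2, Hif1a and the lactate carriers lie lower with shGm26917 in every library, and the highest shNC point of Pfkfb3 is replicate 2 (1003 CPM).

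The rises were those of isoenzymes present at low levels. Ldhb, the heart-type lactate dehydrogenase subunit, stood at 14.9, 27.1 and 16.6 CPM with shGm26917, against 3.22, 1.35 and 2.97 CPM with shNC (log2 fold change 2.96, SE 0.39, adjusted p = 0.00531). Aldoc, the brain-type aldolase, stood at 16.5, 20.4 and 13.3 CPM with shGm26917, against 4.49, 3.31 and 1.08 CPM with shNC (log2 fold change 2.50, SE 0.47, adjusted p = 0.0137), a call lost without shGm26917 replicate 2 (0.0594). Pfkm stood at 10.4, 14.0 and 8.50 CPM with shGm26917, against 3.55, 2.91 and 2.50 CPM with shNC (log2 fold change 1.87, SE 0.26, adjusted p = 0.00603). In each of these genes every shGm26917 library was above every shNC library. The families of Ldhb and Pfkm were still dominated by the usual form: Ldhb made up 4.41 ± 1.48% of lactate dehydrogenase counts per kilobase with shGm26917 and 0.666 ± 0.380% with shNC, and Pfkm 7.14 ± 1.55% and 2.63 ± 0.668% of phosphofructokinase (SD, n = 3 each).

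The enolases Eno3 and Eno2 were also higher. Eno3 stood at 7.03, 6.73 and 7.94 CPM with shGm26917, against 3.35, 3.11 and 1.89 CPM with shNC (log2 fold change 1.38, SE 0.26, adjusted p = 0.0143). It lost the call without shGm26917 replicate 1 (0.0525), 2 (0.0561) or 3 (0.0656). Eno2 stood at 8.86, 9.25 and 10.0 CPM with shGm26917, against 6.03, 6.69 and 4.59 CPM with shNC (log2 fold change 0.70, SE 0.20, adjusted p = 0.0433), and was called with shNC replicate 2 left out but with no other library left out, at adjusted p of up to 0.137. Pdk2 stood at 11.6, 12.4 and 9.98 CPM with shGm26917, against 2.08, 6.28 and 1.69 CPM with shNC (log2 fold change 1.76, SE 0.49, adjusted p = 0.0428). Without shNC replicate 2 its log2 fold change was 2.57, and without any 1 of the other libraries it was not called, with adjusted p of up to 0.127. All 3 genes separated the groups. Pdk2 made up 27.7 ± 2.35% of the Pdk family per kilobase with shGm26917 and 13.3 ± 0.732% with shNC (SD, n = 3 each), and Pdk3 was the largest form in both.

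The abundant core of the pathway was not called. Aldoa stood at 1570, 1549 and 1704 CPM with shGm26917 and 1632, 1722 and 1551 CPM with shNC (log2 fold change -0.02, SE 0.15, adjusted p = 0.923). Ldha had 992, 896 and 806 CPM with shGm26917 and 811, 1227 and 663 CPM with shNC (adjusted p = 0.993), and Eno1 589 to 690 and 496 to 695 CPM (0.476). Pkm had 2981, 2663 and 2801 CPM with shGm26917 and 2121, 4980 and 1795 CPM with shNC (adjusted p = 0.908). The shNC libraries scattered far more than the shGm26917 libraries for Pkm, Tpi1, Hk3 and Pdk1, with replicate 2 the highest in each (Tpi1, 499 CPM there and 170 to 243 CPM in the other 5 libraries, adjusted p = 0.591). Without that replicate Pkm was called higher with shGm26917 (log2 fold change 0.51, adjusted p = 0.0362), as were Gpi1 (0.65, 0.00652), Pfkl (0.72, 0.0140), Pdk1 (1.17, 0.0164) and Pdk3 (1.18, 0.000713), and Pgk1 was called lower (-0.78, 0.00533). With all libraries the adjusted p was 0.0920 for Gpi1, 0.388 for Pfkl, 0.990 for Pdk1, 0.218 for Pdk3 and 0.0657 for Pgk1. Gapdh had 15.9 to 19.4 CPM with shGm26917 and 21.6 to 24.3 CPM with shNC (adjusted p = 0.0711), without overlap. Pfkp, Pfkfb1, Pgam1 and Slc2a3 overlapped between the groups, with adjusted p of 0.445 to 0.792.

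Per kilobase, the order with shGm26917 was Pkm (563 ± 31.9 CPM per kilobase), Aldoa (552 ± 28.9), Ldha (271 ± 28.1), Eno1 (122 ± 10.7) and Hif1a (93.3 ± 10.6). With shNC it was Pkm (593 ± 350), Aldoa (562 ± 29.4), Ldha (272 ± 88.3), Hif1a (154 ± 16.4) and Slc2a1 (118 ± 13.7; SD, n = 3 each). This order depends on the length used. The merged exons of Hif1a and Eno1 span 5896 and 5379 bases, and their longest transcripts 4724 and 2027 bases. Pkm and Aldoa did not differ beyond their spread in either group. Pkm was the only pyruvate kinase counted, in contrast to liver.

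**Figure D5:**
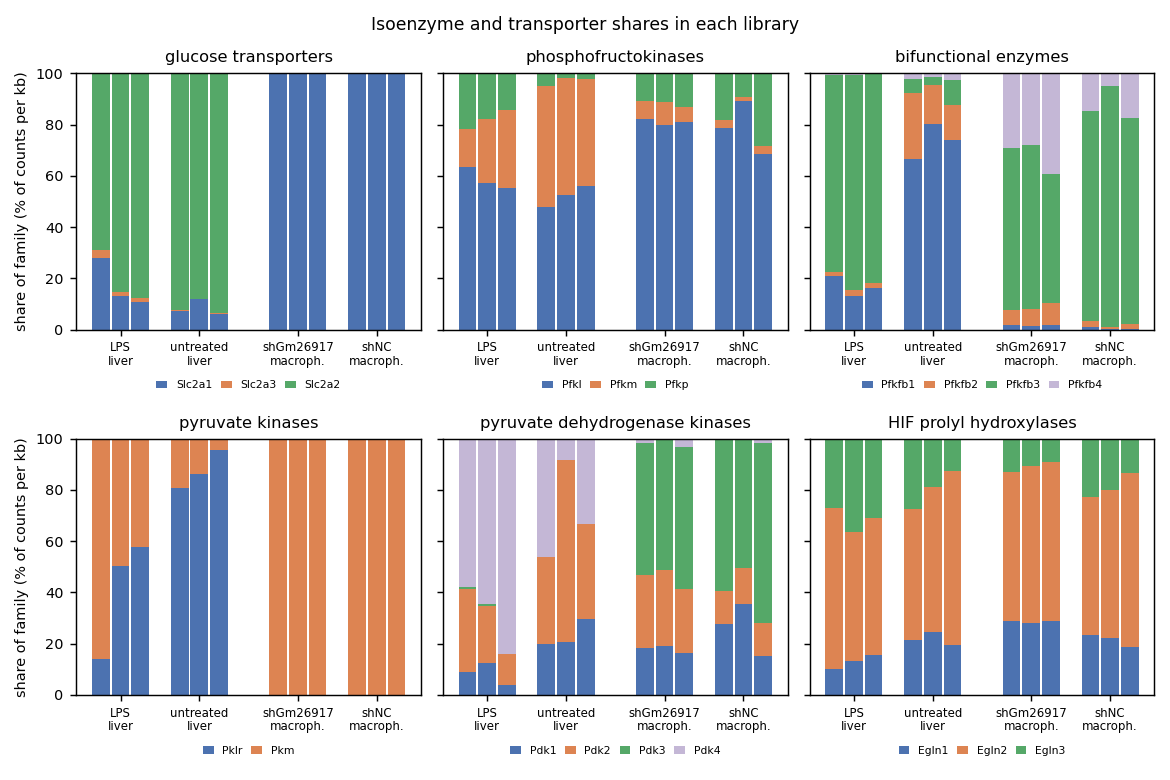
Share of each isoenzyme or transporter in the counts per kilobase of its family, as 1 stacked bar per library for 6 families, with LPS left of untreated liver and shGm26917 left of shNC macrophages. Pfkfb3 takes 76.8% to 84.0% of its family in LPS livers and 3.03% to 9.64% in untreated livers, and 50.5% to 64.1% with shGm26917 and 80.4% to 94.0% with shNC.

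Counts from the lists around the pathway stand beside 12.6% of all genes tested that were higher with shGm26917 and 11.1% that were lower. Of 14 tested genes of the HIF core, 1 was higher and 2 were lower (median -0.21). Epas1, which encodes HIF-2alpha, stood at 63.8, 119 and 52.4 CPM with shGm26917, against 14.8, 14.2 and 11.7 CPM with shNC (log2 fold change 2.53, SE 0.33, adjusted p = 0.00508), opposite in direction to Hif1a. The collagen hydroxylase P4ha2, itself a HIF1 target, stood at 9.42, 6.63 and 8.56 CPM with shGm26917, against 63.6, 52.0 and 85.8 CPM with shNC (log2 fold change -3.03, SE 0.24, adjusted p = 0.00233), and Vhl was the other gene that was lower. Without shNC replicate 2 there were 4 lower, and 1 without any other library. Of 25 tested HIF1 targets outside glycolysis, 4 were higher and 9 lower (median -0.73), with P4ha2 counted among the lower ones here as well. The mTORC1 inhibitor Ddit4 was lower (log2 fold change -2.44), with Adm, Ndrg1, Ero1l, Higd1a and Zfp36l1. Angptl4, an inhibitor of lipoprotein lipase, was higher (3.16), with Car9, Bnip3l and Tfrc.

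Nos2 stood at 0.916, 0.383 and 0.454 CPM with shGm26917, against 30.2, 531 and 68.5 CPM with shNC (log2 fold change -8.45, SE 1.41, adjusted p = 0.00979). Its log2 fold change was -6.38 without shNC replicate 2, and its call was lost without shGm26917 replicate 2 (0.0546) or 3 (0.0541). The number of lower HIF1 targets was 12 without shNC replicate 2, 5 without shGm26917 replicate 1, 4 without shGm26917 replicate 2 or 3, and 6 with library totals. These targets answer to other factors as well as to HIF1. The summed neutrophil markers were 626 to 753 CPM with shGm26917 and 783 to 1243 CPM with shNC, with Retnlg and Ngp at 0. These sums did not overlap, and of 5 neutrophil markers tested 1 was higher and 2 lower. Stellate cell and fibroblast markers summed to 8.05 to 10.4 CPM with shGm26917 and 25.0 to 29.2 CPM with shNC, and large peritoneal macrophage markers to 1152 to 1986 and 757 to 964 CPM, both without overlap. Of 4 stellate cell and fibroblast markers tested 0 were called, with 1 lower at an unadjusted p under 0.05 and in DESeq2. Of 6 large peritoneal macrophage markers tested 1 was higher and 0 lower. B cell markers, at 118 to 288 CPM with shGm26917 and 194 to 609 CPM with shNC, overlapped. The part of other cells in these results was not tested.

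The pentose phosphate and glycogen genes had 7 higher and 0 lower of 17 tested (median 0.40), with 8 and 0 at an unadjusted p under 0.05 and 7 and 0 in DESeq2. Among them were G6pdx and Pgls of the oxidative branch, Rpia and Tkt of the non-oxidative branch, and Gbe1 and Pygl of glycogen handling, with the phosphorylase Pygl at 384, 372 and 344 CPM with shGm26917, against 157, 157 and 114 CPM with shNC (log2 fold change 1.36, SE 0.16, adjusted p = 0.00457). The number higher was 3 without any 1 shGm26917 replicate, without shNC replicate 1 or in 1 fit over all 12 libraries, and 4 without shNC replicate 3. Of 12 other glycolytic and glucose entry genes 3 were higher (median 0.37; 5 at an unadjusted p), led by Galm, which interconverts the anomers of glucose, at 27.8, 30.9 and 26.4 CPM with shGm26917 and 5.69, 5.20 and 3.44 CPM with shNC (log2 fold change 2.57). The lactate and pyruvate carrier Slc16a7 was also higher (2.00). That count was 5 without shNC replicate 2, 2 without any 1 shGm26917 replicate or shNC replicate 3, and 6 with library totals. Of 11 genes of the pyruvate dehydrogenase list 1, the pyruvate carrier subunit Mpc2, was higher; the count was 0 without shGm26917 replicate 2 or 3, 2 without shNC replicate 1 or 2, and 4 with library totals. Of 17 transcription regulators 4 were higher and 1 lower (median 0.17), with Mlxipl, which drives Pklr in hepatocytes, at 7.09 to 11.1 CPM with shGm26917 and 1.21 to 2.03 CPM with shNC (log2 fold change 2.50). The number higher was 1 to 6 with 1 library left out. Of the 3 gluconeogenic genes tested Slc37a4 was higher, a call lost with any 1 shGm26917 replicate or shNC replicate 3 left out. Of 6 genes listed as near-identical copies 0 were called in edgeR, 0 at an unadjusted p under 0.05 and 0 in DESeq2, and 2 were called higher without shNC replicate 2.

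Set side by side, 32 members were tested in both tissues. Of the 11 that rose in LPS liver, Hk2, Pfkfb3, Slc16a1, Slc16a3 and Hif1a were lower in LPS-treated macrophages with shGm26917. Of the 5 that fell in LPS liver, Pfkm and Pdk2 were higher with shGm26917. In edgeR 0 members were called in the same direction in both comparisons and 10 in neither. At an unadjusted p under 0.05, and also in DESeq2, 1 member, Eno3, was higher in both. The matching shares over all genes tested in both tissues were not counted. Whether these opposite directions are particular to the members was therefore not tested. The comparisons share no libraries, but they differ in tissue and in what was varied, and macrophages without LPS were not analysed here, so whether LPS alone changes these genes in the macrophages was not tested.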

How the data were processed

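Poly(A) RNA was sequenced in 12 libraries, 3 for each of 4 groups read from titles and treatment labels. The authors deposited 1 table of unnormalized counts for each library, with a whole number of reads for every Ensembl gene ID, per the file headers. STAR, featureCounts 1.6.3 and mm10 are named in the submitters' processing notes. The treatment of multi-mapping reads and of strand is not stated in the sources used here, nor what the word combined in the macrophage headers stands for. The tables listed 49585 gene IDs in liver and 55401 in macrophages (49022 shared), so each tissue was fitted alone. Of the IDs, 49326 in liver and 55141 in macrophages had a symbol. Positions and exon lengths are those of GENCODE M21 on GRCm38.

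The fit used edgeR 4.0.16 in R 4.3.3, with filterByExpr at its default settings, TMM scaling and glmQLFTest, the 2-sided quasi-likelihood F test, on the group. Fold changes are LPS over untreated and shGm26917 over shNC, and SE is their absolute log2 value over the square root of F. Isoenzyme shares were counts per kilobase of merged exon as a percent of the family, compared by a 2-sided exact permutation test. Alternatives were library totals, RLE factors, other filters, DESeq2 1.42.0, 1 fit over all 12 libraries, a replicate block and each library left out. Counts of the 8 gene lists under these alternatives were added after the data were seen. Members and lists were chosen with earlier results of these data known. Genes with values are those called, the most abundant isoenzymes and the main HIF1 genes; list genes with values are called ones past 1 on the absolute log2 scale, at most the 5 largest per list. Further list genes are named without values. Some genes of the lists and families are not reported here.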

Additional observations from a re-analysis of the deposited data

How the results depend on the processing

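Of the 16 member calls in liver, 12 to 16 held under each alternative. Of the 15 in macrophages, 11 to 15 held with all libraries in the fit or without shNC replicate 2, 8 or 9 without another shNC replicate, and 2 to 5 without an shGm26917 replicate. RLE factors, DESeq2, both filters and the fit over 12 libraries left every count of called members and genes within 1.5 times the reported one, in both tissues. Library totals gave 1943 higher and 5305 lower genes in liver (26.8% higher, against 51.3% with TMM) and 3135 and 794 in macrophages, with 8 higher and 7 lower members in liver and 8 and 4 in macrophages. By construction they move all log2 fold changes, and those of uncalled members that changed sign were -0.16 for Gpi1, -0.058 for Pfkfb1 and -0.28 for Tpi1 in liver, and 0.16 for Pfkp, 0.26 for Aldoa, 0.12 for Pgam1, 0.22 for Pkm, 0.28 for Ldha and 0.28 for Pdk1 in macrophages. Without a filter, Ldha (0.011) and Pdk1 (0.0035) changed sign in macrophages; the cause was not tested. The fit over 12 libraries lost Pkm and called Hk1, Pfkfb2 and Pgam1 in liver, and lost Hk2 and Eno2 in macrophages. With no filter Eno3 and Egln3 were called in liver and Eno2 was lost in macrophages. DESeq2 called Eno3 in liver and Gapdh and Pgk1 in macrophages, and library totals called Pfkfb2 and Pgam1 in liver and Gpi1 in macrophages.

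Groups shared replicate numbers, which the labels do not tie to animals or days. Deviations of same-numbered libraries correlated at 0.118, 0.05 and -0.077 in liver and -0.041, 0.24 and 0.178 in macrophages. Not every library correlated best with its own number. Deviations from means of 3 libraries cannot decide whether the numbers pair the libraries. With a replicate block 3002 genes were higher and 2752 lower in liver (members 9 and 5) and 1424 and 1170 in macrophages (members 5 and 8), and Pkm (0.086), Ldha (0.041) and Pdk1 (0.46) changed sign in macrophages. The block ended the calls of Aldoa and Pkm in liver and of Hk2, Pfkfb2, Eno2 and Slc37a4 in macrophages, where Pgk1 was called, and 5 pentose phosphate and glycogen genes were higher there.

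With 1 library left out, a setting in which fewer libraries are tested, liver members called ranged from 9 to 12 higher and 4 to 6 lower. In macrophages they ranged from 2 to 12 higher and 0 to 9 lower, and genes called from 479 to 2715 higher and 360 to 2521 lower. Log2 fold changes of uncalled members that changed sign ranged from -0.0062 to 0.67 for Gpi1, -0.94 to 0.45 for Aldoc, -0.0026 to 0.27 for Tpi1, -0.24 to 0.074 for Pgk1 and -0.22 to 0.045 for Eno1 in liver. In macrophages the ranges were -0.68 to 0.30 for Hk3, -0.34 to 0.034 for Pfkp, -0.14 to 0.46 for Pfkfb1, -0.024 to 0.073 for Pfkfb4, -0.072 to 0.0059 for Aldoa, -0.60 to 0.28 for Tpi1, -0.35 to 0.51 for Pkm, -0.19 to 0.27 for Ldha, -0.47 to 1.17 for Pdk1 and -0.033 to 0.30 for Egln1. Among isoenzyme shares, that of Pdk2 in liver was 24.9 percentage points lower with LPS, and 6.35 points higher when Pdk4, which is not among the 34, was left out of its family. Members with group means under 1 CPM, such as Pdk3 in liver and Slc2a3 in macrophages, are limited by depth.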
